A study of Mus musculus with 3 samples.

Results

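Proteoglycan sugar chains are built, sulphated and trimmed by a set of enzymes and transporters whose genes were followed here through single cells of mouse fracture callus. The genes were taken by symbol from the annotated gene rows of the count tables, with no measured value in the rule: sulphotransferases of the Chst family, Chsy, Chpf and Csgalnact polymerases, Xylt, B4galt7, B3galt6, B3gat and Fam20b of the linker, Ext, Extl, Ndst and Hs sulphotransferases of heparan sulphate, Sulf1 and Sulf2, Has1 to Has3, and Papss1, Papss2, Slc26a2 and Ugdh of the supply. That gave 57 genes of 32285. The callus came from C3H/HeJ mice, a strain in which fractures heal slowly, all of them female and 9 weeks old, each with 1 femur pinned and broken at midshaft. Mice were injected under the skin every day, and callus was taken on day 7. The PTH library came from mice given parathyroid hormone 1-34 at 100 µg/kg, the YKL library from mice given YKL-05-099, an inhibitor of salt-inducible kinases, at 15 mg/kg, and the Control library from mice of the vehicle arm (PBS). Marrow was avoided in dissection, and cells were freed with collagenase. The labels give no number of animals for a library, so animals may have been pooled.

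A glycosaminoglycan chain starts on a serine of a core protein with a short linker of xylose, galactose and glucuronic acid, and is then extended either as chondroitin or as heparan sulphate. Sulphotransferases place sulphate on set positions of the chain, drawing on the activated donor PAPS, which Papss1 and Papss2 make from sulphate that Slc26a2 carries into the cell. Cartilage depends on this pathway, because the sulphated chondroitin chains of aggrecan hold its water, and loss of SLC26A2 or PAPSS2 in people gives skeletal dysplasias. The rule also takes in genes outside proteoglycans in the strict sense: hyaluronan has no core protein, and Chst8, Chst9, Chst10, B3gat1 and B3gat2 are known mainly for sugars of glycoproteins and glycolipids.

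With 1 library a group there is no replicate, so no test between groups was made, and a difference compares libraries and not conditions. Values are UMIs, molecules counted by their tag, summed over a class of cells and scaled to 1000000 UMIs of that class (CPM). A 3′ kit counts molecules whatever their length, so CPM were not divided by gene length. Each ratio has an exact 95% interval that covers counting error only, and a gene was called higher or lower at a ratio of at least 1.5-fold, with at least 50 UMIs over the pair. After filtering, the libraries held 1906 cells for PTH, 598 for YKL and 2904 for Control, with a median of 12284, 25686 and 11632.5 UMIs a cell. Mitochondrial UMIs were over 10% in 44.5% of the PTH barcodes, 18.5% of the YKL barcodes and 17.6% of the Control barcodes, which were left out. Cells fell into 22 clusters, formed without the 57 genes, of which 6 were chondrocyte-like by their markers and 4 stayed unnamed; the suffix "-like" is left out from here on. Chondrocytes numbered 758 in PTH, 427 in YKL and 1528 in Control. The leading genes of their clusters included chondrocyte markers, except in cluster 13. That cluster, described below, was led by genes of hypertrophic and prehypertrophic states. Col2a1 stood between 23000 and 41800 CPM in the 6 clusters over all libraries. Other classes held Col2a1 at 0.318% to 10.2% of the chondrocyte level, which sets how far a high cartilage gene appears in cells of another class. Between 2 and 8 barcodes were shared by any pair of libraries, and at most 1 of them passed the filters in both.

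Of the 57 genes, 44 had at least 50 UMIs over the cells kept, 9 had 1 to 49, and 4 (Hs3st2, Hs3st4, Chst4 and Hs6st3) had none. Among them 19 overlap another counted gene on the genome, Ext2, Sulf2, Hs2st1, Chsy1, Chst11, Csgalnact1, B4galt7, Has2 and Ndst1 included, and reads of the overlap may be split or lost there.

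Promoter windows were at hand for 43 of the genes, as 52 RefSeq windows on GRCm38.p6 that run from 250 bases before a start to 50 after it. They were searched on both strands for TGACGTCA (the full cyclic AMP response element), TGACG (its core, found inside the full one as well), ACAAAG (a SOX motif) and TGTGGT (a RUNX motif). The full element stood in 4 of the 52 windows (7.69%), those of Chpf, Has1, Hs3st2 and Hs3st3a1, against 1.79% of all 32851 windows. TGACG stood in 28.8% of the windows of these genes against 20.8% of all windows. ACAAAG stood in 3.85% against 18.7%, and TGTGGT in 3.85% (Chst4 and Papss2) against 16.8%. These are letter matches, and no binding was measured. The upstream stretches below show the full element in the 3 detected genes that hold it, and the RUNX motif of Papss2, a sulphate gene that varied widely across cartilage clusters; capitals mark the match, and the lower-case end of Chpf holds the element once more.
Chpf, chr1:75479504-75479603, minus strand: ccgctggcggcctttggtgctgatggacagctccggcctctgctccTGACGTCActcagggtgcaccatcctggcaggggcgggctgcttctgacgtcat
Has1, chr17:17855218-17855317, minus strand: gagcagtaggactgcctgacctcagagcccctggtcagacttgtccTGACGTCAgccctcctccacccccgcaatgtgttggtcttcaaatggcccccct
Hs3st3a1, chr11:64435203-64435302, plus strand: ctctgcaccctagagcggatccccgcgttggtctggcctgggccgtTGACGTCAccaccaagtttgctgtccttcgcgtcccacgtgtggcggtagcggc
Papss2, chr19:32595486-32595585, plus strand: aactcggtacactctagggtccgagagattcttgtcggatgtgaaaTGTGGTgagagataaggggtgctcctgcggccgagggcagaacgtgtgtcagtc

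Across cell classes, chondrocytes carried the highest level of the supply genes and of some, not all, of the genes that start, extend and sulphate chondroitin. Among classes with at least 50 cells (6 in PTH, 2 in YKL, 7 in Control), chondrocytes were the highest class in each library for 15 of the 57 genes. All 15 are among the 44 with at least 50 UMIs, a share of 34.1%, where chondrocytes were the highest class for 8.68% of all genes with as many UMIs. These were all 4 supply genes, 4 of the linker genes (Xylt1, B4galt7, B3gat3 and Fam20b), Csgalnact1, Chsy1, Chst11, Chst12, Extl1, Hs3st3a1 and Hs3st3b1. Only Csgalnact1 and Chsy1 of the 6 chondroitin polymer genes were among them; Chpf, a polymerase partner, was at 98.7 CPM in PTH tendon cells and 89.1 CPM in Control fibroblasts, against 29.6 and 22.9 CPM in PTH and Control chondrocytes. Endothelial cells were the highest for 6 genes, 13.6% of the 44, where they were for 12% of all genes: Chst7, Chst15, Chst1, Ndst1, Ndst2 and Hs3st1.

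Set against endothelial cells of the same library, the class with at least 50 cells in all 3, chondrocytes were higher in every library for 15 of 36 genes, where 13.9% of all genes were. They were lower for 8 of the 36, where 28.9% of all genes were. Ugdh, which makes the UDP-glucuronic acid of every chain, stood at 408 CPM in PTH, 392 in YKL and 449 in Control chondrocytes, against 34.6, 30.9 and 34.5 CPM in endothelial cells of those libraries. Xylt1, which adds the first xylose, was 13.5-fold higher in chondrocytes in PTH, 14.9-fold in YKL and 16.7-fold in Control. Papss2 stood at 352, 298 and 503 CPM in PTH, YKL and Control chondrocytes, against 66.5, 64.1 and 68.2 CPM in endothelial cells. For these genes the lowest chondrocyte value was above the highest endothelial value. The median cell was also deeper in chondrocytes (17529.5, 29856 and 16345.5 UMIs in PTH, YKL and Control) than in endothelial cells (5944, 6197 and 5218 UMIs). After each cell was thinned to 2000 UMIs, which left out 21, 16 and 37 chondrocytes and 36, 8 and 26 endothelial cells, Papss2 had a UMI in 37.4%, 31.4% and 55.0% of PTH, YKL and Control chondrocytes (82.1%, 80.6% and 88.9% unthinned). The share in thinned endothelial cells was 11.1%, 11.6% and 8.18% (34.0%, 35.3% and 27.6% unthinned), and in thinned macrophages 1.96% in PTH and 1.24% in Control.

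**Figure D1:**
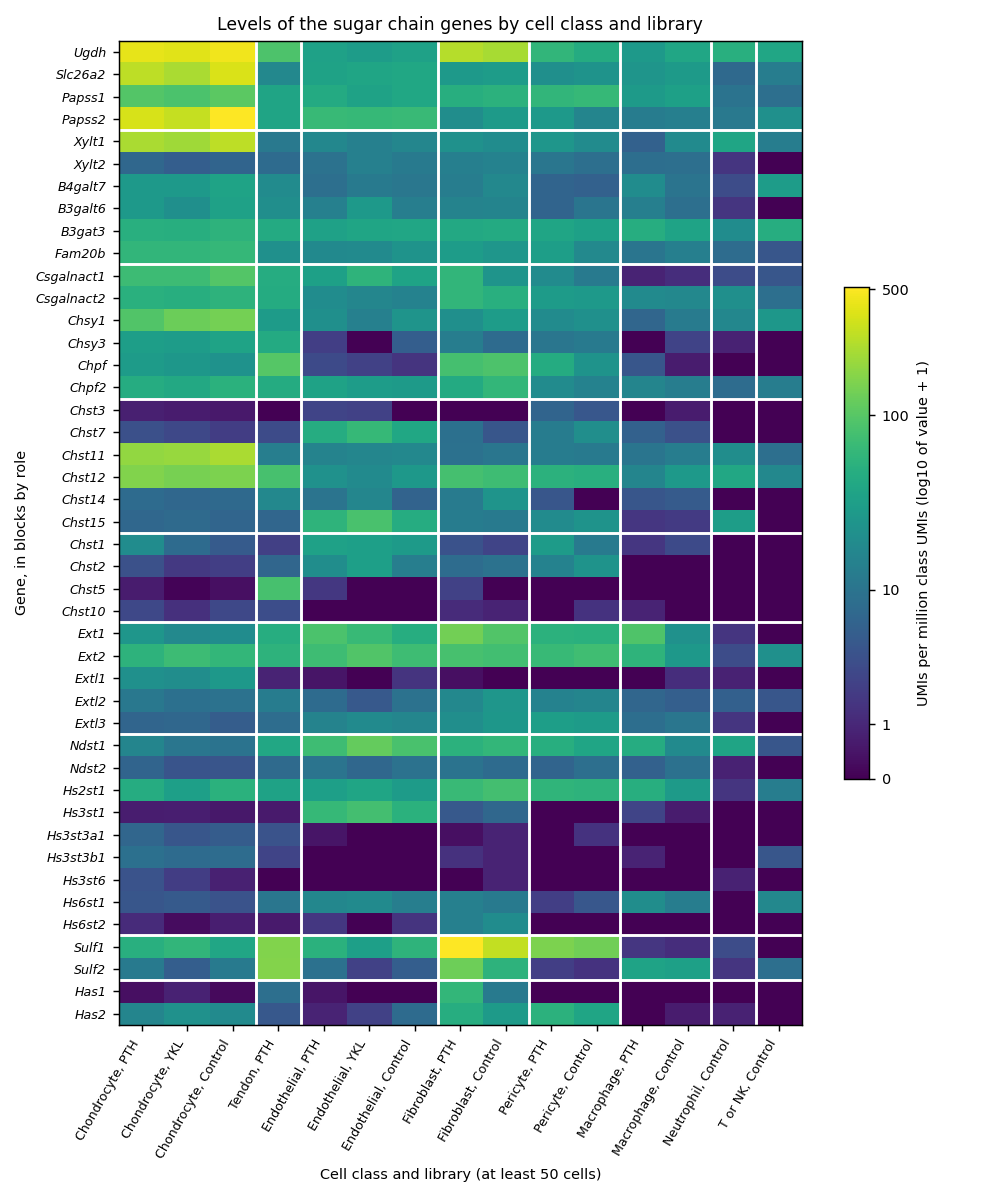
Level of each gene in each cell class and library with at least 50 cells, in CPM on a log10(value + 1) colour scale; rows run in blocks by role. The supply genes and Xylt1, Chst11 and Chst12 are brightest in the 3 chondrocyte columns, Hs3st1, Chst7 and Chst15 in the endothelial columns, and Sulf1 in the fibroblast columns, at 514 and 287 CPM.

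The sulphate pattern enzymes divided by class. Chst11 and Chst12, which sulphate chondroitin at the 4-O position, stood at 186, 198 and 233 CPM and at 159, 141 and 151 CPM in PTH, YKL and Control chondrocytes. The enzymes of the 6-O position were scarce in the same cells: Chst3 and Chst7 together had 58, 46 and 66 UMIs, against 4662, 4461 and 9651 for Chst11, Chst12 and Chst13, which made 1.23%, 1.02% and 0.679% of the UMIs of the 5 genes. Chst7 was far higher in endothelial cells, with ratios of chondrocytes over endothelial cells of 0.0765, 0.0449 and 0.0528 in PTH, YKL and Control. Chst15, which adds a further sulphate to chondroitin 4-sulphate, had ratios of 0.122, 0.0887 and 0.143. Chst5, a keratan sulphate enzyme, stood at 82.8 CPM in tendon cells of PTH and at no more than 2.33 CPM in any other class shown.

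Single heparan sulphate genes differed widely between classes. Hs3st1, which makes the rare 3-O-sulphated site, stood at 64.3, 78.4 and 53.3 CPM in PTH, YKL and Control endothelial cells and at 0.665, 0.683 and 0.478 CPM in chondrocytes. Ndst1, the N-sulphotransferase that starts heparan modification, had chondrocyte over endothelial ratios of 0.222, 0.0906 and 0.118. Extl1, a glycosyltransferase of the exostosin family, lay the other way. It stood at 22.3, 20.4 and 27.1 CPM in PTH, YKL and Control chondrocytes and at most 1.57 CPM in endothelial cells. YKL endothelial cells had no UMI of it. With a floor of 3 counts in place of 0 the YKL ratio was 2.86, and the lower limit of its interval was 2.31. Sulf1, which strips 6-O sulphates from heparan outside the cell, was highest in fibroblasts, at 514 CPM in PTH and 287 CPM in Control. Sulf2 was highest in PTH tendon cells at 162 CPM. The hyaluronan synthase Has2 stood at 16.3, 22.8 and 19.0 CPM in PTH, YKL and Control chondrocytes, below the 53.7 and 38.6 CPM of PTH and Control pericytes.

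Where a pair of enzymes serves 1 step, the classes used them in different proportions. Papss2 gave 78.8% of Papss UMIs in PTH chondrocytes (exact binomial interval 77.7% to 79.8%), 77.6% in YKL and 82.6% in Control. It gave 59.8%, 64.3% and 63.0% in endothelial cells of PTH, YKL and Control, and 28.9% and 34.7% in fibroblasts of PTH and Control. Xylt1 gave 97.0%, 97.5% and 97.7% of Xylt UMIs in PTH, YKL and Control chondrocytes, and 63.9% and 58.3% in PTH and Control endothelial cells. Ext1, which forms the heparan polymerase with Ext2, gave 31.8%, 20.2% and 24.4% of the pair in PTH, YKL and Control chondrocytes, and 62.2% and 55.1% in PTH and Control fibroblasts. In these 3 pairs the intervals of chondrocytes and fibroblasts do not overlap.

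**Figure D2:**
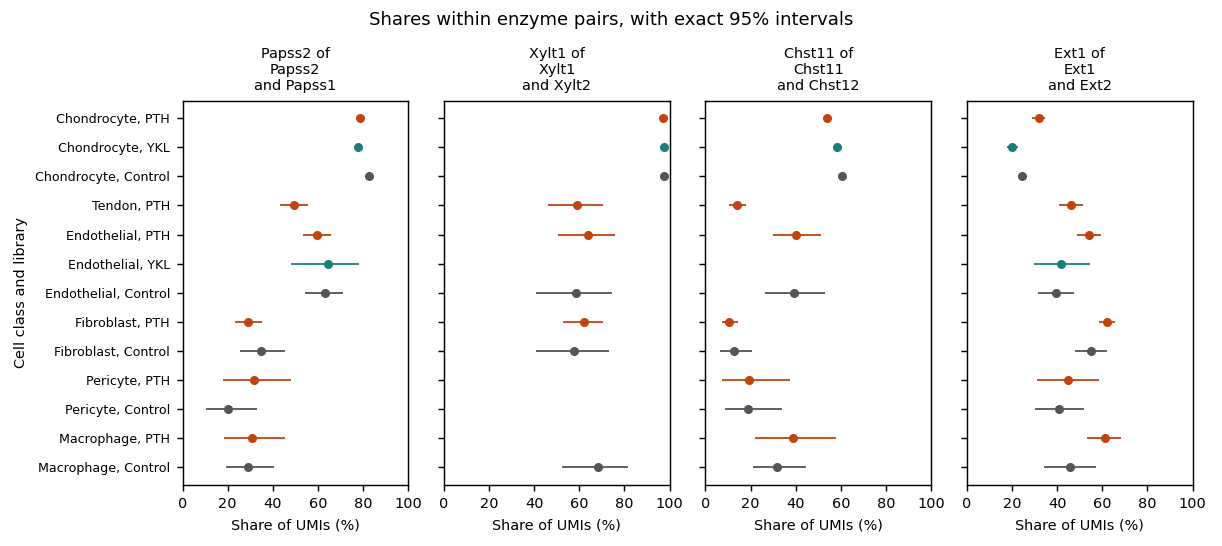
Share of the first gene among the UMIs of an enzyme pair, in percent, by cell class and library, with exact binomial 95% intervals; pairs with fewer than 20 UMIs are left out. Papss2, Xylt1 and Chst11 take their highest shares in the chondrocyte rows (for Xylt1 97.0% to 97.7%), and Ext1 its lowest, at 20.2% in YKL.

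Within cartilage, the 6 chondrocyte clusters had different sets of leading genes. Clusters 13 and 5 were led by Col10a1, the collagen of hypertrophic cartilage, together with Ihh and Ibsp. Cluster 13 was also led by Mmp13, with 27400 CPM of Col10a1 over all libraries against 7410 in cluster 5. Clusters 1, 2 and 3 were led by Ucma, cluster 3 together with Ibsp and with 16000 CPM of Col1a1, and cluster 0 by Adm and Bnip3, genes known to respond to low oxygen. Libraries filled them unequally. Cluster 13 held 7.92% of PTH, 22.5% of YKL and 5.76% of Control chondrocytes, and cluster 3 held 22.0%, 12.2% and 8.64%. Of YKL chondrocytes, the Ucma-led clusters 1 and 2 held 2.34% and 1.64%, that is 10 and 7 cells.

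**Figure D3:**
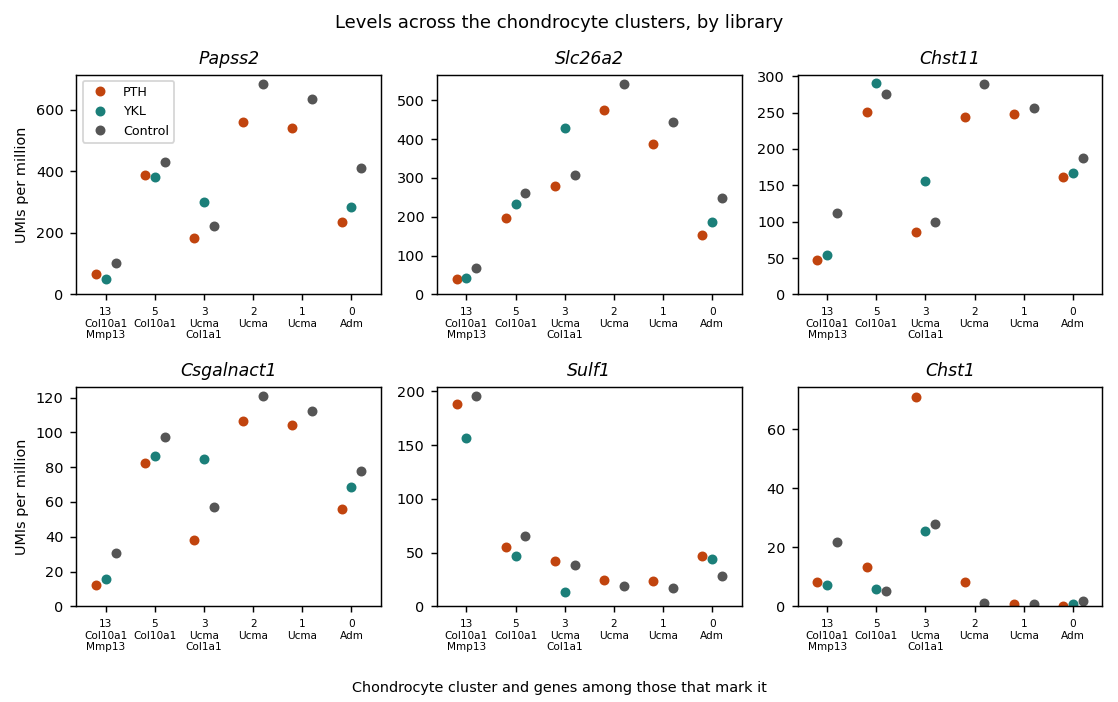
Level of 6 genes, in CPM, in each chondrocyte cluster of each library with at least 20 cells; cluster numbers stand over genes that mark the cluster, and each point is 1 library. Papss2, Slc26a2 and Csgalnact1 are lowest in cluster 13 in every library, Chst11 is lowest there in PTH and YKL but in cluster 3 in Control (99.0 against 113 CPM), Sulf1 is highest there at 157 to 195 CPM, and Chst1 is highest in cluster 3 at 25.5 to 70.8 CPM.

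The Mmp13-led cluster 13 stood below cluster 5 for the 4 supply genes, 4 of 6 chondroitin polymer genes and both main 4-O-sulphotransferases. Set against the other Col10a1-led cluster of the same library, it was lower in every library for 12 of 23 genes, where 11.6% of all genes were, and higher for 1, where 7.19% of all genes were. The 12 were Ugdh, Slc26a2, Papss1 and Papss2 of the supply, B3galt6 and Fam20b of the linker, Csgalnact1, Chsy1, Chsy3 and Chpf2 of the chondroitin polymer, and Chst11 and Chst12. Papss2 stood at 67.0, 50.9 and 104 CPM in cluster 13 of PTH, YKL and Control, against 387, 384 and 432 CPM in cluster 5. Its ratios were 0.173 (0.132 to 0.222), 0.133 (0.11 to 0.159) and 0.24 (0.2 to 0.287), and the lowest cluster 5 value was above the highest cluster 13 value. Slc26a2 stood at 40.8, 42.6 and 68.3 CPM in cluster 13, against 197, 232 and 260 CPM in cluster 5. Csgalnact1, which starts a chondroitin chain on the linker, stood at 12.6, 15.8 and 30.6 CPM against 82.6, 86.3 and 97.5 CPM. Chst11 stood at 47.1, 53.6 and 113 CPM against 250, 290 and 275 CPM. For these 4 genes cluster 13 was below cluster 5 in each library, and for each of them Control had the highest value of cluster 13.

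The first and last enzymes of the linker differed less. Xylt1 had ratios of 0.7, 0.603 and 0.702 in PTH, YKL and Control, and B3gat3, which closes the linker with glucuronic acid, 1.09, 0.754 and 0.798, so neither passed in every library. Ugdh had ratios of 0.581, 0.344 and 0.365. Sulf1 (chr1:12692277-12861192 on GRCm38, plus strand) was the 1 gene above, at 188, 157 and 195 CPM in cluster 13 of PTH, YKL and Control against 55.5, 47.0 and 65.6 CPM in cluster 5. The ratios were 3.39, 3.33 and 2.98. With Papss1 less reduced than Papss2, the Papss2 share was 66.7%, 57.6% and 74.6% in cluster 13 of PTH, YKL and Control, below the 78.8%, 77.6% and 82.6% of all chondrocytes. The osteoblast marker score of cluster 13, 2.015, came close to its chondrocyte score of 2.332, and the part of that in these values was not tested.

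**Figure D4:**
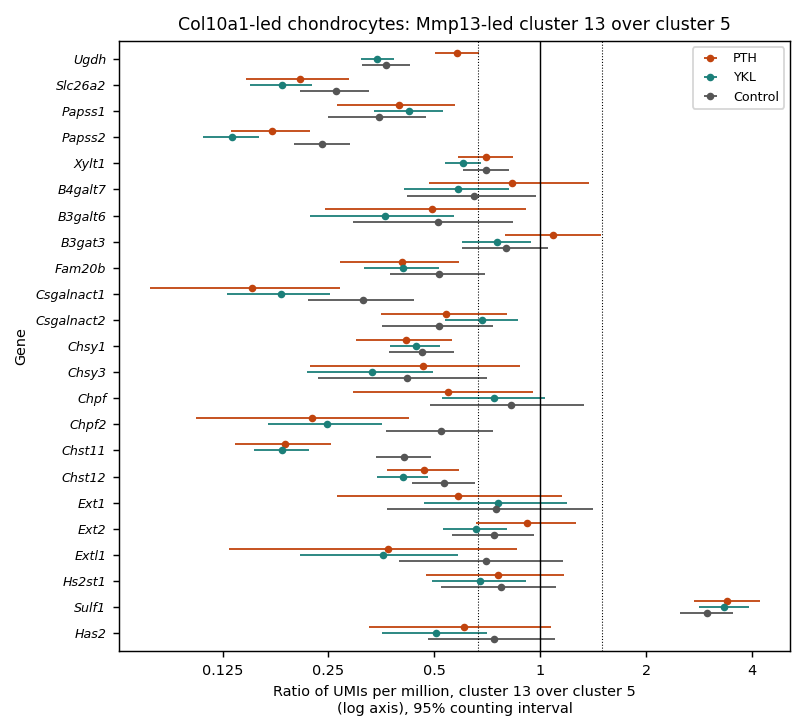
Ratio of the Mmp13-led cluster 13 over the Col10a1-led cluster 5 for the 23 genes with enough UMIs in every library, on a log axis, with 95% counting intervals; dotted lines mark 1.5-fold. Supply and chondroitin genes lie left of 1 in all 3 libraries, down to 0.133 for Papss2 in YKL, and Sulf1 alone lies right of the upper line in each.

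With both Col10a1-led clusters joined and set against the Ucma-led clusters, few genes passed in every library. Sulf1 was higher, 1 of 32 genes where 5.5% of all genes were higher, at 87.1, 83.0 and 93.3 CPM in Col10a1-led cells of PTH, YKL and Control against 31.0, 12.6 and 20.8 CPM in Ucma-led cells. Slc26a2 was lower with ratios of 0.427, 0.373 and 0.47, as were the heparan polymerase genes Ext1 (0.533, 0.479 and 0.55) and Extl1 (0.515, 0.552 and 0.58), 3 of 32 where 5.96% of all genes were lower. In YKL, 52 of the 69 Ucma-led cells came from cluster 3.

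In PTH chondrocytes set against Control chondrocytes, 6 of 39 genes were higher, where 7.16% of all genes were, and none was lower, where 3.17% were. The median log2 ratio was 0.01, as it was over all genes. Chst1, which sulphates the galactose of keratan sulphate (chr2:92599707-92615250, plus strand), stood at 20 CPM in PTH and 4.94 CPM in Control, a ratio of 4.04 (3.26 to 5.04). Hs3st6, a heparan 3-O-sulphotransferase (chr17:24752988-24758684, plus strand), had 53 UMIs in PTH and 19 in Control, a ratio of 5.18 (3.02 to 9.26). Ndst1 stood at 16.1 CPM in PTH and 9.88 CPM in Control (1.63, 1.35 to 1.97). Its relative Ndst2 stood at 6.51 and 4.22 CPM (1.54, 1.15 to 2.06). Chst7 stood at 3.55 CPM in PTH and 2.11 CPM in Control (1.68, 1.11 to 2.53), and Chst2, which sulphates N-acetylglucosamine, at 3.7 and 2.19 CPM (1.69, 1.13 to 2.52). All 6 are sulphotransferases, each at 20 CPM or less in both libraries.

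Much of the Chst1 and Hs3st6 signal sat in the Col1a1-high cluster 3, which was also a larger part of the PTH library. It held 73.7% of the Chst1 UMIs of PTH chondrocytes and 41.1% of those of Control, and 51 of 53 Hs3st6 UMIs in PTH, 28 of 28 in YKL and 15 of 19 in Control. Within cluster 3, Chst1 stood at 70.8 CPM in PTH and 28.0 CPM in Control, a ratio of 2.53 (1.85 to 3.51). Hs3st6 stood there at 18.2 and 8.25 CPM, a ratio of 2.2 (1.22 to 4.22). Chst2 did not keep its direction there. Cluster 3 held 33 of its 50 UMIs in PTH chondrocytes and 28 of its 55 in Control. Within that cluster Chst2 stood at 11.7 CPM in PTH and 15.4 CPM in Control, a ratio of 0.763 (0.447 to 1.31). In cluster 5 Chst1 stood at 13.4 CPM in PTH and 5.23 CPM in Control. Without cluster 3 the Chst1 ratio was 2.11, with all clusters weighted equally it was 1.73, and within the Col10a1-led cells alone it was 1.39. Without cluster 13 it was 5.13, and within the Ucma-led cells, which include cluster 3, it was 6.56. In cluster 13 itself Chst1 stood at 8.37 CPM in PTH and 21.7 CPM in Control, from 8 and 27 UMIs. The osteoblast marker score of cluster 3 was 2.261, beside its chondrocyte score of 2.816. The 10 osteoblast markers summed to 14000 CPM in PTH, 11200 in YKL and 6580 in Control chondrocytes, with none of the 10 at 0. Their part in the Chst1 difference was not tested.

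Several abundant supply and chondroitin genes had PTH over Control ratios below 1 that did not reach 1.5-fold. Papss2 had a ratio of 0.7 (0.677 to 0.724) and Slc26a2 of 0.764 (0.735 to 0.794). Chsy1, a chondroitin polymerase, stood at 94.7 CPM in PTH, 127 in YKL and 140 in Control, a ratio of 0.675 (0.633 to 0.72) for PTH and 0.904 (0.853 to 0.959) for YKL. Csgalnact1 stood at 71.9, 70.7 and 95.9 CPM in PTH, YKL and Control, ratios of 0.749 for PTH and 0.737 for YKL. Chst11 had ratios of 0.797 in PTH and 0.848 in YKL, and Xylt1 of 0.838 and 0.771, against the same Control cells. The intervals of Papss2, Slc26a2 and Chsy1 lay below 1 in PTH, as did those of 16 of the 39 genes in all (41.0%, against 18.8% of all genes). A further 10 lay above 1 (25.6%, against 19.3% of all genes). An interval narrows as UMIs rise, so these shares also depend on how many UMIs each gene had. Other genes at 50 CPM or more had these ratios. Ugdh had ratios of 0.909 in PTH and 0.875 in YKL, Papss1 of 0.895 and 0.812, and B3gat3 of 0.901 and 0.886. Fam20b, the xylose kinase, stood at 59.4, 60.6 and 62.3 CPM in PTH, YKL and Control, and Csgalnact2 at 52, 49.1 and 55.9 CPM. Chpf2 had ratios of 0.888 and 0.813 in PTH and YKL, Chst12 of 1.05 and 0.93, and Ext2 of 0.905 and 1.16. Within clusters some genes kept that direction throughout. Papss2 was below 1 in 6 of 6 clusters (0.57 to 0.898) and Slc26a2 in 6 of 6 (0.597 to 0.909). Chsy1 was below 1 in 6 of 6 (0.555 to 0.796) and Csgalnact1 in 6 of 6 (0.411 to 0.931). Others did not: Ugdh had ratios of 0.934 and 0.854 in clusters 0 and 2, but 1.13, 1.08 and 1.02 in clusters 1, 3 and 5. In cluster 13 Ugdh stood at 233 CPM in PTH and 143 CPM in Control.

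In YKL chondrocytes set against the same Control chondrocytes, 2 of 38 genes were higher, where 10% of all genes were, and 6 were lower, where 8.26% were. The median log2 ratio was -0.18, against -0.02 over all genes. Papss2 (chr19:32595790-32667187, plus strand) stood at 298 CPM in YKL and 503 CPM in Control, a ratio of 0.593 (0.572 to 0.614), and Slc26a2 at 231 and 360 CPM, a ratio of 0.642 (0.616 to 0.669). Sulf2 stood at 5.54 CPM in YKL and 11.7 CPM in Control (0.471, 0.36 to 0.611), and Hs2st1, the heparan 2-O-sulphotransferase, at 33.4 and 52.6 CPM (0.634, 0.568 to 0.707). The linker gene B3galt6 stood at 21.3 and 34.4 CPM (0.62, 0.54 to 0.71). Chst10 was low in both, at 1.37 and 2.83 CPM (0.483, 0.271 to 0.819). Higher were Sulf1, at 60.4 CPM in YKL and 39.3 CPM in Control, a ratio of 1.54 (1.4 to 1.69), and Chst1, at 7.96 and 4.94 CPM, a ratio of 1.61 (1.23 to 2.11). The Chst1 ratio was 4.34 in Ucma-led cells, but 0.725 in Col10a1-led cells and 0.692 with clusters 0, 3, 5 and 13 weighted equally. Within clusters it was 0.909 in cluster 3 and 1.14 in cluster 5, and in cluster 13 Chst1 stood at 7.1 CPM in YKL and 21.7 CPM in Control.

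Cluster 13 held 22.5% of YKL and 5.76% of Control chondrocytes, and the part of that in these values was not tested. Cluster 13 held 49.9% of the Sulf1 UMIs of YKL chondrocytes and 24.6% of those of Control. Within cluster 13 Sulf1 stood at 157 CPM in YKL and 195 CPM in Control, and the ratio was 0.716 in cluster 5, 0.356 in cluster 3 and 1.55 in cluster 0. With clusters 0, 3, 5 and 13 weighted equally, Sulf1 had a ratio of 0.797, Papss2 of 0.874 and Slc26a2 of 1.01. None of the 3 was then past 1.5-fold. Clusters 1 and 2 were not in that weighting, with 10 and 7 YKL cells but 22.1% and 20.4% of Control chondrocytes. Papss2 was lower within clusters 13 (0.49), 0 (0.692) and 5 (0.889) and higher in cluster 3 (1.36). Slc26a2 followed the same order of sign, with 0.623, 0.754, 0.89 and 1.4. Without cluster 13, the ratios were 0.682 for Papss2, 0.736 for Slc26a2 and 1.2 for Sulf1.

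**Figure D5:**
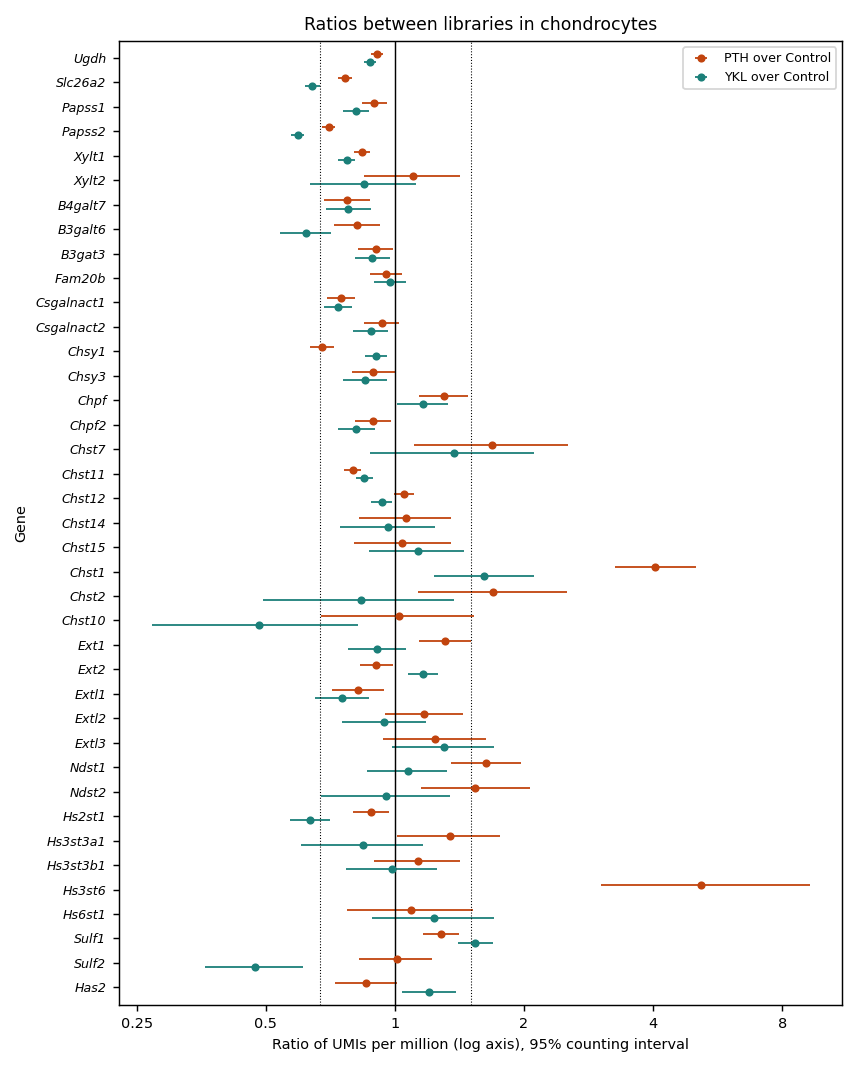
Ratio of PTH over Control and of YKL over Control in chondrocytes for the genes with at least 50 UMIs over the pair, on a log axis, with 95% counting intervals; dotted lines mark 1.5-fold. Chst1 and Hs3st6 lie farthest right in PTH, at 4.04 and 5.18, and Papss2, Sulf2 and Chst10 lie left of the lower line in YKL, at 0.593, 0.471 and 0.483.

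Between the agents, none of 39 genes was higher in YKL than in PTH chondrocytes, where 6.27% of all genes were, and 8 were lower, where 7.88% were. The 8 were Chst1 (0.399), Chst2 (0.492), Chst10 (0.474), Sulf2 (0.468), Hs3st6 (0.542), Ndst1 (0.654), Ndst2 (0.618) and Hs3st3a1 (0.629), sulphotransferases but for Sulf2, which removes sulphate. In cluster 3 by itself, 6 of 29 genes were higher in YKL than in PTH and 5 were lower, where 7.93% and 15.7% of all genes were. There Csgalnact1 was 2.21-fold higher, Fam20b 2.18-fold, Chst11 1.81-fold, Papss2 1.63-fold and Slc26a2 1.54-fold, while Chst1 had a ratio of 0.36, Sulf1 of 0.323 and Sulf2 of 0.278.

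The rest of the pathway in chondrocytes was read from lists of related genes, to be set against the 7.16% of all genes higher and 3.17% lower in PTH than in Control, and the 10% and 8.26% in YKL. Of 12 genes of precursor supply, none was higher in PTH than in Control, and in YKL none of the 12 passed in either direction. Of 9 genes of further chain synthesis, none passed in PTH, and 1 was higher and 1 lower in YKL: Pxylp1, which removes the phosphate from the linker xylose (1.77), and Glce, the heparan epimerase (0.636). Of 17 genes that degrade chains or hyaluronan, 4 were higher and 1 lower in PTH than in Control, and 4 were higher and none lower in YKL. Cemip, which binds and breaks down hyaluronan, stood at 8.8 CPM in PTH, 11.3 in YKL and 2.35 in Control, ratios of 3.74 (2.72 to 5.21) for PTH and 4.81 (3.54 to 6.62) for YKL. Of 11 heparan sulphate core proteins, 3 were higher and 1 lower in PTH than in Control: Gpc1 had a ratio of 1.72, Sdc2 of 1.56 and Gpc3 of 0.325. In YKL none of the 11 was higher and 2 were lower than in Control, Agrn (0.631) and Col18a1 (0.581). Of 7 chondroitin sulphate core proteins, 2 were lower in YKL, Bgn at 1250 CPM against 2200 CPM in Control, and Srgn, which was the 1 lower in PTH. None of 4 genes of hyaluronan links and receptors passed in either. All 9 hypertrophy genes were higher in YKL than in Control, and 3 were in PTH. The 12 genes of blood and other cells differed too: 2 were higher and 9 lower in PTH, and 1 was higher and 11 lower in YKL, and the erythroid list summed to 1230 CPM in PTH, 293 in YKL and 2860 in Control chondrocytes.

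Outside cartilage fewer molecules were counted and fewer genes could be set side by side. In endothelial cells, 2 of 25 genes were higher and none lower in PTH than in Control, where 9.95% and 2.57% of all genes were. Of these Ext1 had an interval above 1, at 86.7 CPM in PTH and 47.8 CPM in Control (1.81, 1.35 to 2.46). In YKL endothelial cells, which numbered 51, 3 of 16 genes were higher and 1 lower than in Control, where 13.8% and 5.99% of all genes were, and Chst15 had an interval above 1 (1.82). Against PTH, 3 of 21 genes were higher and 2 lower in YKL endothelial cells, where 8.7% and 9.77% of all genes were, with Csgalnact1 (1.67) and Ndst1 (1.6) above 1 by their intervals.

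In fibroblasts 6 of 31 genes were higher and 1 lower in PTH than in Control, where 9.59% and 6.94% of all genes were. Fibroblasts numbered 301 in PTH and 112 in Control, and tendon cells 208 in PTH, 2 in YKL and 0 in Control. The fibroblast cluster had a tendon marker score of 2.464 beside its own of 4.701. Whether the tissue taken differed between the libraries was not tested. Has1, a hyaluronan synthase, was at 62.1 CPM in PTH and 12.2 CPM in Control, from 213 and 14 UMIs, a ratio of 5.07 (2.96 to 9.44). Csgalnact1 was 2.47-fold higher, Sulf2 2.33-fold, Sulf1 1.79-fold and Has2 1.67-fold, and the interval of the other gene took in 1, while Chst14, the dermatan 4-O-sulphotransferase, had a ratio of 0.512. In macrophages 4 of 11 genes were higher and 1 lower in PTH than in Control, where 17.5% and 8.52% of all genes were. Ext1 stood there at 90.2 CPM in PTH and 22.4 CPM in Control, a ratio of 4.03, with Ndst1 at 2.49-fold, Ext2 at 2.15-fold and Hs2st1 at 1.68-fold. All 4 are heparan sulphate genes, as is Sulf2, also among the 11, with a ratio of 1.08. The class takes in monocytes, and its osteoclast marker score was 4.449 beside its own of 5.576. The mix of cells within it was not tested. In pericytes none of 8 genes passed either way, where 11.5% of all genes were higher and 4.28% lower. YKL held too few fibroblasts (17), macrophages (27) and pericytes (10) to be set beside the others.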

How the data were processed

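Single-cell 3′ v3 libraries were deposited by the authors as tables of UMI counts per gene and barcode; per the submitters' processing notes, Cell Ranger 4.0.0 and Seurat were used with mm10. Gene symbols and barcodes are other columns of the deposited files. Genes and lists were chosen with earlier results of these data known. Barcodes needed at least 500 detected genes and no more than 10% of UMIs from mitochondria, and 7 PTH, 8 YKL and 40 Control doublets marked by Scrublet were removed. Scanpy 1.11.5 clustered cells on 2000 variable genes without the 57, with 30 components, 15 neighbours and Leiden resolution 0.8; clusters were named by fixed markers of 18 classes. UMIs were summed per library and class, and ratios and exact conditional binomial intervals came from SciPy 1.17.1; against 0 UMIs a floor of 3 counts was used. Totals per library were 33981167 UMIs for PTH, 19424073 for YKL and 55250651 for Control. Genes given in full are those past 1.5-fold with an interval outside 1 and those of at least 50 CPM in chondrocytes of 1 library, with up to 4 in other comparisons and lists; Hs3st1, Chst5, Extl1, Has2 and the enzyme shares were chosen after their values were seen. On simulated counts the intervals covered the true ratio for 95.6% of unchanged genes (PTH against Control, 11357 genes), and 99.5% of 200 genes changed 2-fold were recovered. The counts were drawn with counting error alone, as the intervals assume, so this checks the computation only. The changed genes were taken from the better counted ones, and differences between cells or animals were not simulated. Gene coordinates are from GENCODE M21. Alternatives are given in the closing section. Some genes of the pathway lists are not reported here by name.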

Additional observations from a re-analysis of the deposited data

Results flagged for a closer look

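Chst1, the keratan sulphate sulphotransferase, lay on opposite sides of 1 between libraries when Col10a1-led chondrocytes were set against Ucma-led chondrocytes: its ratio was 0.404 in PTH, 0.317 in YKL and 1.9 in Control. Each library is 1 sample, and the difference between libraries was not tested. In PTH, 199 of 270 Chst1 UMIs of chondrocytes came from the Col1a1-high cluster, one of the Ucma-led clusters, and without it the PTH ratio was 2.5.

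Ndst1, the heparan N-sulphotransferase, was lower in YKL than in PTH in chondrocytes, with a ratio of 0.654, and higher in endothelial cells, with a ratio of 1.6. That difference between cell classes was not tested, and the YKL endothelial class held 51 cells and 49 UMIs of Ndst1.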

How the results depend on the processing

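No paired analysis was possible because each group has 1 library. Of 1160 ratios recomputed under alternatives, 900 stayed inside the 95% counting interval of the reported ratio. Another 244 fell outside it on the same side of 1, and 16 changed sides of 1. Whether a ratio kept its 1.5-fold call was not part of that count. Of 166 counts, 95 stayed within 1.5 times. Causes were not tested. Counts that moved follow, against 6 higher and 0 lower in PTH over Control, 2 and 6 in YKL over Control, 0 and 8 in YKL over PTH, 1 and 3 in Col10a1-led over Ucma-led cells, and 1 and 12 in cluster 13 over cluster 5.

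PTH over Control gave 1 higher and 1 lower in Col10a1-led cells, 1 lower in Ucma-led cells, 1 and 2 after thinning to 2000 UMIs, 2 higher at 2-fold or at a minimum of 200 UMIs, 3 and 1 with doublets kept, 2 and 1 at 1000 genes or without the Col1a1-high cluster, 1 lower at 200 genes, 3 higher at 20% mitochondrial UMIs, 2 and 2 at 5%, and 11 and 2 with no minimum. YKL over Control gave 0 and 1 in Col10a1-led cells, 6 higher in Ucma-led cells, 0 and 2 with equal weights or at 2-fold, 1 higher at 1000 genes, at resolution 1.2 or without the Col1a1-high cluster, 3 lower at 5% mitochondrial UMIs or without the Mmp13-led cluster, and 9 higher with no minimum. YKL over PTH gave 2 and 2 in Col10a1-led cells, 2 higher in Ucma-led cells, 2 lower after thinning, 1 and 4 with equal weights or at 5% or 20% mitochondrial UMIs, 4 lower at 2-fold, 1 and 2 with doublets kept, 1 and 3 at 1000 genes, 3 lower at 200 UMIs or without the Col1a1-high cluster, and 6 higher with no minimum.

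Col10a1-led over Ucma-led gave 1 lower after thinning, at 2-fold or at 1000 genes, 5 lower with collagen, mitochondrial, ribosomal and haemoglobin genes out of the totals, 6 lower at 200 genes or with no minimum, 8 lower at resolution 0.4, 2 and 9 at resolution 1.2 or 20% mitochondrial UMIs, 2 and 11 with the 57 genes used in clustering, and 2 higher with median-of-ratios scaling or without the Mmp13-led cluster. Cluster 13 over cluster 5 gave 0 and 5 after thinning, 7 lower at 2-fold, 2 higher at 5% mitochondrial UMIs, 4 higher with no minimum and 0 higher at resolution 1.2. At resolution 0.4, at 200 genes, at 20% mitochondrial UMIs or with the 57 genes in clustering no separate Mmp13-led cluster formed; elsewhere the Papss2 ratio there ranged over 0.154 to 0.275 in PTH, 0.087 to 0.253 in YKL and 0.226 to 0.41 in Control.

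Equal weights took clusters with at least 20 cells in both libraries, so comparisons with YKL left out clusters 1 and 2. With equal weights the ratio was 0.981 for Chst2 in PTH over Control. It was 1.01 for Slc26a2, 0.692 for Chst1 and 0.797 for Sulf1 in YKL over Control, and 1.0 for Hs3st3a1 in YKL over PTH. In Col10a1-led cells it was 0.725 for Chst1 and 0.889 for Sulf1, YKL over Control. In Ucma-led cells it was 0.607 for Sulf1, YKL over Control, and 1.46 for Hs3st6, YKL over PTH. In YKL, cluster 13 over cluster 5 gave 1.15 for B4galt7 at resolution 1.2 and 2.55 for Has2 at 5% mitochondrial UMIs. In PTH, Col10a1-led over Ucma-led Chst1 was 2.5 without the Col1a1-high cluster, 1.02 at 1000 genes, 1.91 at 20% mitochondrial UMIs and 3.27 with doublets kept; in YKL, Ndst1 was 1.11 at 20%. Ratios between Col10a1-led and Ucma-led cells had no YKL value at 5% mitochondrial UMIs or with doublets kept, where 2 and 17 YKL Ucma-led cells were left. The comparison of cluster 13 with cluster 5, and the settings that leave out a cluster, were chosen after seeing the data.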
